A study of Mus musculus with 7 samples.

Results

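The insulin-like growth factor (IGF) genes described here were the ligands Igf1 and Igf2, the receptor Igf1r and 6 genes of IGF binding proteins (Igfbp2, Igfbp3, Igfbp4, Igfbp5, Igfbp6 and Igfbp7). They were chosen by name as a family, with earlier results of these data known. They were found on the array through the RefSeq accession of each probe. All 9 genes were found, with 10 probes, among 13971 named genes and 34967 gene probes. Each gene had 1 probe except Igfbp5, which had 2.

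IGF1 and IGF2 are secreted growth factors that bind the IGF1 receptor, a tyrosine kinase that signals through insulin receptor substrates to the PI3K and AKT pathway and to the MAP kinases. The binding proteins hold most of the ligand outside cells and can restrain or prolong its action, and proteases release it. In the mammary gland IGF1 made by the stroma acts with estrogen and growth hormone on the growth of ducts, and IGFBP5 is known for its rise when the gland regresses after lactation. IGFBP7 binds IGFs weakly and is abundant in blood vessels and matrix.

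RNA came from mammary glands of 4-week-old female mice kept in serum-free organ culture, and was hybridized to 1-colour CodeLink mouse arrays with 1 array per group. Glands were grown for 10 days with 5 µg/ml insulin, 5 µg/ml prolactin, 1 µg/ml aldosterone and 1 µg/ml hydrocortisone, and then for 14 days with insulin alone, so that regression ended at day 24. The study's 3 arrays were αERKO and βERKO, which lack estrogen receptor α or β and came from a C57BL6/129SV background, and wild-type (WT) C57/BL6 glands given the carcinogen DMBA (2 µg/ml for 24 h on day 3). The other 4 arrays were WT glands at day 10 and at day 24 without DMBA, and BALB/c glands at day 24 without and with vitamin D5. RNA of 5 mice was pooled for each of the study's 3 arrays.

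The limits of these groups bear on every value. The knockout mice lack the receptor in all tissues, so that gland epithelium, stroma and the rest of the animal differ together, and they differ from WT in strain background as well. Only the WT title mentions DMBA, although the methods give it for all 3 groups. The titles of the BALB/c arrays do not mention DMBA, and no dose of vitamin D5 is given. The protocols give both 1 µg estrogen with 1 mg progesterone for 9 days and 25 ng EGF with 1 mg progesterone for 5 days as treatment of the mice before culture. For the study's 3 arrays the text of the study names EGF with progesterone, and for the other 4 arrays the treatment is not settled by the sources used here. Strain and treatment cannot be told apart where they change together. The methods also describe αERKO glands as free of lesions with no samples taken for molecular work, although an αERKO array was deposited.

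Levels are given as the log2 of a spot's intensity over the median of its array, where 0 is the median gene probe. A spot was called good by the scanner software when it stood above background, and values marked near background are imprecise. Where 1 spot of a ratio was near background, its own value or the array's lowest good value, whichever was higher, was used. Such folds are given as about and are not minima. The median intensity was 39.1 to 53.0 over the 7 arrays, and 68.4% to 74.2% of probes were good. With 1 array per group there was no replicate and no test could be made. As the error of a log2 ratio, the SD between probes that share an accession was taken on the same pair of arrays, which covers the probes' own error but not the spread between mice. It was 0.60 for αERKO against WT with DMBA (575 probe pairs), 0.37 for the βERKO array against the same WT array (599 pairs) and 0.23 for WT day 24 against day 10 (569 pairs).

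The targeted genes were examined first. The Esr2 probe was good on the array of βERKO glands, at 0.87, and near background on the WT array with DMBA, so that array is called the array labelled βERKO. The Esr2 probe was also good on WT day 24, at -0.55. The Esr1 probe was good on WT with DMBA at -1.02 and on BALB/c with vitamin D5 at -0.74, and near background on both knockout arrays and on the other 3 arrays with wild-type receptors, so it does not check the αERKO label. Where these probes lie relative to the disrupted exons is not given in the sources used here. Luminal epithelial markers were good on all 7 arrays (9 of 9 genes). The αERKO array stood apart in skeletal muscle genes (9 of 10 listed genes had a probe), whose summed level was 2308 times the array median against 8.32 to 51.8 on the other 6. On those other 6 arrays Myh4, a muscle myosin, was near background, while Acta1, Tnni2, Atp2a1 and Mylpf of the same list were good. The lymphocyte list (7 genes) was also highest on αERKO, at a summed 36.8 against 12.0 to 14.8 on the other arrays. Against WT with DMBA, 4 of 6 lymphocyte genes above background were over 2-fold higher (Cd3d, Cd4, Cd79b and Ms4a1), beside 10.3% of all genes. Their part in the values of the IGF genes was not tested.

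The 2 ligands were both highest on the αERKO array. Igf1 (probe GE35590) was at 5.42 on αERKO, 3.03 on the array labelled βERKO, 4.85 on WT with DMBA, 0.02 on WT day 10, 2.54 on WT day 24, -0.75 on BALB/c (near background) and -0.21 on BALB/c with vitamin D5. It had the widest range of the 9 genes, about 71.6-fold, which is imprecise since its lowest value was near background. The αERKO and WT with DMBA values lay 0.57 apart, within the SD of 0.60, and the other steps between good spots in this order exceeded their SD. Igf1 was thus highest on αERKO and WT with DMBA, lower on the array labelled βERKO and on WT day 24, which lay 0.49 apart, and low on WT day 10 and both BALB/c arrays.

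Igf2 (probe GE35591), the growth factor prominent before birth, was at 2.18 on αERKO, 0.18 on the array labelled βERKO, 0.14 on WT with DMBA, -0.37 on WT day 10, -0.87 on WT day 24 (near background), -0.85 on BALB/c and -0.90 on BALB/c with vitamin D5. The αERKO value stood 2.00 above the next array, the widest step. The array labelled βERKO and WT with DMBA differed by 0.04, and the 3 lowest arrays, of which WT day 24 was near background, have no order. Both knockout arrays were above all 5 arrays of wild-type receptor status, which was so for 1 of the 9 genes and for 8.40% of 13244 genes good on at least 1 array. For Igf2 that order rests on the 0.04 step. None of the 9 was below all 5 on both knockout arrays, against 4.89% of all genes.

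The receptor was low on 1 array and lay near the array median on the others. Igf1r (probe GE33248) was at -1.46 on αERKO (near background), 0.02 on the array labelled βERKO, 0.05 on WT with DMBA, 0.56 on WT day 10, 0.50 on WT day 24, -0.12 on BALB/c and 0.65 on BALB/c with vitamin D5. In this order the step from WT day 24 down to WT with DMBA (0.45) exceeded its SD, and the other 4 steps between good spots did not. Below BALB/c the αERKO spot was near background, so that its distance is imprecise. The lowest receptor value thus fell on the array with the highest ligand values.

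Igfbp2 and Igfbp3, the latter the main carrier of IGFs in serum, shared a pattern that peaked on the array labelled βERKO. Igfbp2 (probe GE1563053) was at 0.75 on αERKO, 3.49 on the array labelled βERKO, 1.45 on WT with DMBA, 1.86 on WT day 10, 1.61 on WT day 24, 2.17 on BALB/c and 1.23 on BALB/c with vitamin D5. Igfbp3 (probe GE34626) was at -0.88, 1.72, 0.17, 0.38, 0.50, 0.39 and 0.19 in the same order of arrays. The array labelled βERKO was highest for both, by 1.32 for Igfbp2 and 1.22 for Igfbp3 over the next array, and αERKO lowest for both. For Igfbp2 the 3 steps from WT day 24 down to αERKO were each within their SD. For Igfbp3 the 5 arrays with wild-type receptors lay within 0.33 of each other, and the αERKO value lay 1.05 below the lowest of them, beyond the SD of 0.60.

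Igfbp4, Igfbp6 and Igfbp7 were highest on αERKO. Igfbp4 (probe GE36356), which restrains IGF action until it is cleaved, was at 4.30 on αERKO, 0.06 on the array labelled βERKO, 1.90 on WT with DMBA, 0.39 on WT day 10, 0.15 on WT day 24, 0.38 on BALB/c and 1.01 on BALB/c with vitamin D5. The range was 4.24 or 18.9-fold, and the 4 lowest arrays could not be told apart by neighbouring steps. Igfbp6 (probe GE34627), with a preference for IGF2, was at 1.30 on αERKO, -2.10 on the array labelled βERKO (near background), 0.19 on WT with DMBA, -0.62 on WT day 10, -1.02 on WT day 24 (near background), -0.28 on BALB/c and -1.66 on BALB/c with vitamin D5 (near background). It was good on 4 arrays, and the steps between those 4 exceeded their SD. The 3 values near background have no order.

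Igfbp7 (probe GE34430) was at 8.38 on αERKO, 7.06 on the array labelled βERKO, 7.19 on WT with DMBA, 4.44 on WT day 10, 5.82 on WT day 24, 4.16 on BALB/c and 4.85 on BALB/c with vitamin D5. As with Igf1, the 3 arrays of the study were the highest and WT day 24 came next, and the range was 18.7-fold. Its array labelled βERKO and WT with DMBA values lay 0.13 apart, within the SD, and its other steps exceeded theirs.

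Igfbp5 (probe GE102333) was at 6.98 on αERKO, 8.20 on the array labelled βERKO, 8.28 on WT with DMBA, 8.35 on WT day 10, 6.63 on WT day 24, 8.03 on BALB/c and 8.60 on BALB/c with vitamin D5. It was low on αERKO and WT day 24 and high on the other 5 arrays, where the topmost step, 0.25 from BALB/c with vitamin D5 to WT day 10, exceeded its SD of 0.19 and the other 3 did not. Its second probe (GE35592) had the same sign as the first in all 7 comparisons, with values of -0.74, 1.34, 1.42, 1.22, -0.29, 0.58 and 1.34 in the same order.

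**Figure D1:**
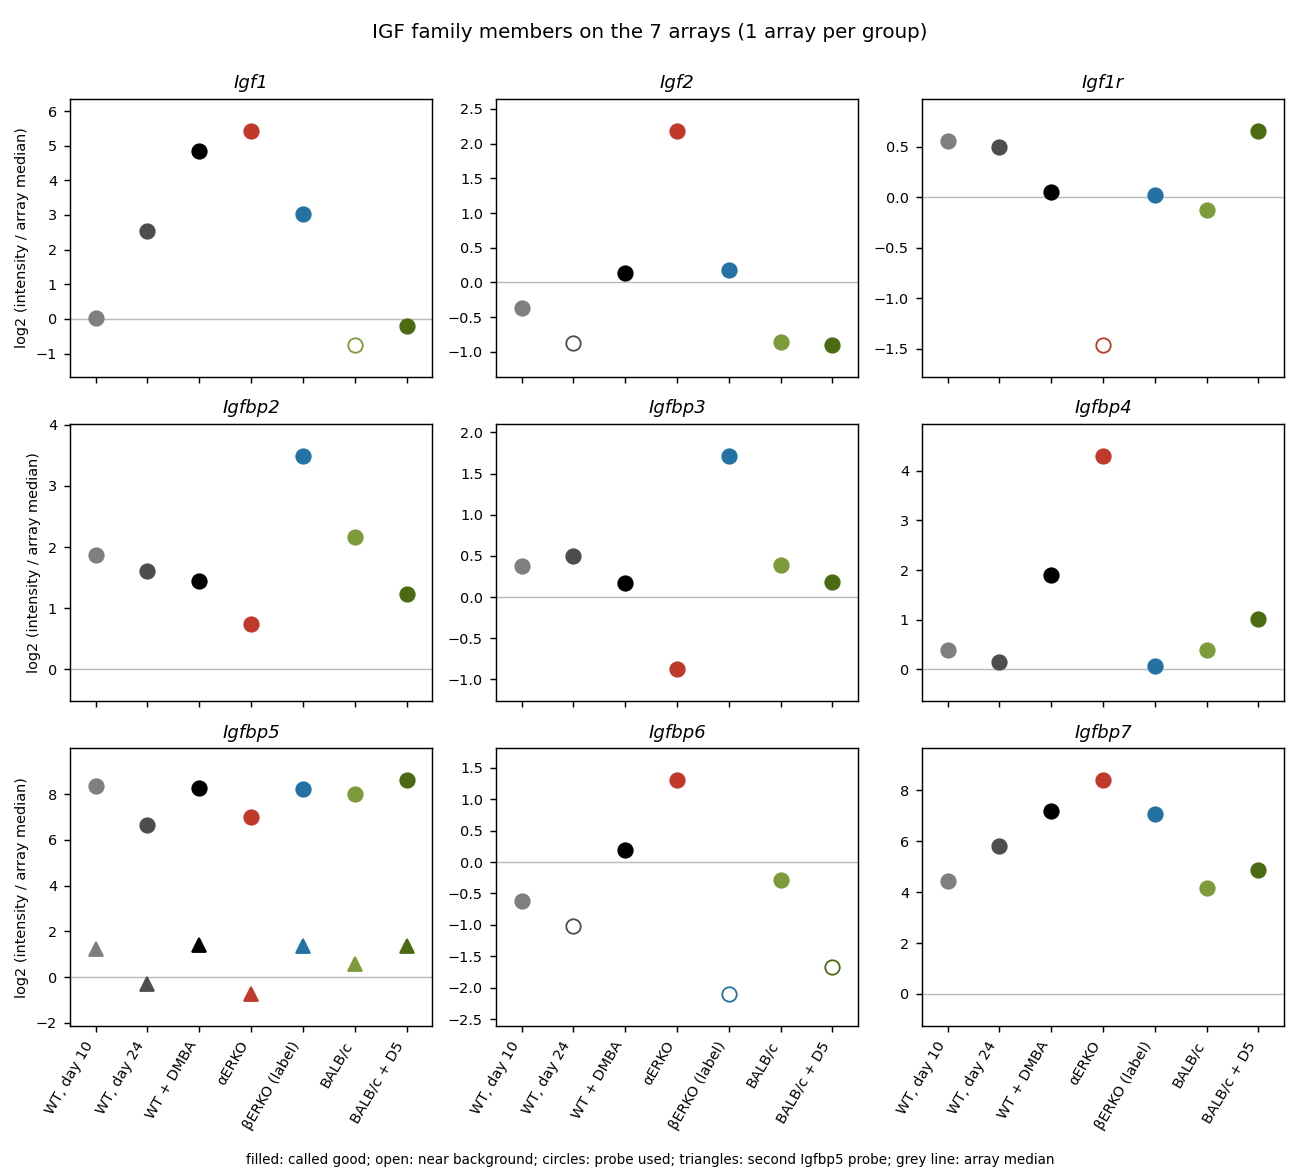
Log2 intensity over the array median (vertical axis) of the 9 IGF genes on the 7 arrays (horizontal axis), with open points for spots near background, triangles for the second Igfbp5 probe and a grey line at the array median. Igf1, Igf2, Igfbp4, Igfbp6 and Igfbp7 peaked on the αERKO array, and Igfbp2 and Igfbp3 on the array labelled βERKO.

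Over the 7 arrays the median range of the 9 genes was 3.08 on the log2 scale, against 1.32 for all genes good on at least 1 array, and both medians count values near background as measured. αERKO was the highest of the 7 arrays for 5 of the 9 genes, where 20.8% of all genes had it highest, and the lowest for 3 (Igf1r, Igfbp2 and Igfbp3), where 36.4% of all genes had it lowest. Igfbp5 was neither on its brighter probe, while αERKO was the lowest array on its second probe.

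The first 250 bases before the start sites of 4 of these genes are shown. Igf1, Igfbp4 and Igfbp7 are 3 of the 6 genes that were over 2-fold higher on WT with DMBA than on WT day 24, and Igfbp2, the contrast, is 1 of the 3 that were not. Sequences are RefSeq's for GRCm38.p6, 5′ to 3′ on the strand of the gene, at chr10:87860861-87861110 (plus strand), chr11:99040994-99041243 (plus), chr5:77408046-77408295 (minus) and chr1:72824230-72824479 (plus). Capitals mark the searched motifs, on either strand: the xenobiotic response core GCGTG, the GC box GGGCGG, the TATA box TATAAA, the CCAAT box CCAAT and the estrogen response element (GGTCA and TGACC parted by any 3 bases).
Igf1: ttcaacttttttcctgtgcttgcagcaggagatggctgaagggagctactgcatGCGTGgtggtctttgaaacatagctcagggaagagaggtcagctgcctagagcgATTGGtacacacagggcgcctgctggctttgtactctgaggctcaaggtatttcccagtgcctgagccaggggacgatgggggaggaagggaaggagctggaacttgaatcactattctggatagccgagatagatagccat
Igfbp4: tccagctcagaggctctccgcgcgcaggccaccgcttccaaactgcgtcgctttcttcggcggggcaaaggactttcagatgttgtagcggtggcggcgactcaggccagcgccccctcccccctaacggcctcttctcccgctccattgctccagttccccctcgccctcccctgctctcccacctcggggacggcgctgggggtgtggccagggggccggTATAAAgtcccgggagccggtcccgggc
Igfbp7: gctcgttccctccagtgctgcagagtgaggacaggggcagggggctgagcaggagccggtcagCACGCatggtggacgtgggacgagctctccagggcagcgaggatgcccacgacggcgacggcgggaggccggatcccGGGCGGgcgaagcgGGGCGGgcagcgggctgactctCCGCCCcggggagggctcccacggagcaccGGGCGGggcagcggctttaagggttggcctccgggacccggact
Igfbp2: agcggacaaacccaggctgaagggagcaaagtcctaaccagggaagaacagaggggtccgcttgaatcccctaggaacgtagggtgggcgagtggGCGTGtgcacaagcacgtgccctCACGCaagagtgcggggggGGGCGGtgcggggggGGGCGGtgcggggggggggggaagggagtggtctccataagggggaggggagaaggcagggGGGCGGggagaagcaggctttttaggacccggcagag
Of 13 windows for the 9 genes, 5 held GCGTG against 28.2% of 32851 windows in all. A GC box was in 5 of the 13 against 32.7%, a TATA box in 2 against 12.4%, and a CCAAT box in 3 against 33.8%. The full estrogen response element was in none, against 0.0639% of all. By gene, the xenobiotic core was in a window of 2 of the 6 genes higher with DMBA (Igf1 and Igfbp7) and of all 3 others (Igf1r, Igfbp2 and Igfbp3). Igfbp2 has a second window, at chr1:72825137-72825386, which is not shown and held none of the searched motifs. Such matches describe letters in a window and do not mark a bound site. Igfbp2 and Igfbp5 are neighbours on chromosome 1, Igfbp3 lies beside Igfbp1 on chromosome 11 and Igf2 beside Ins2 on chromosome 7.

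Loss of ERα was addressed by αERKO against WT with DMBA. Here 4 of the 9 genes were over 2-fold higher (44.4%, against 10.3% of 12425 genes tested) and 3 were over 2-fold lower (33.3%, against 15.3%). Higher were Igf2 by 2.04 on the log2 scale, Igfbp4 by 2.40, Igfbp6 by 1.11 and Igfbp7 by 1.19. Lower were Igf1r, about 2.86-fold, Igfbp3 at -1.05 and Igfbp5 at -1.30. Igf1 was at 0.57, within the SD of 0.60, and Igfbp2 at -0.71. The median of the 9 log2 ratios was 0.57 against -0.17 for all genes. The SD was 0.89 for probe pairs below the array median and 0.50 for those at or above it, so the ratio of the dim Igfbp3 probe was close to its error, and it was -0.92 with 75th percentile or cyclic loess scaling. Summed muscle markers were 2308 times the array median on αERKO and 10.6 on this WT array, and their part in these ratios was not tested. The second Igfbp5 probe gave -2.16. With normexp background correction and an offset of 50, 3 genes remained over 2-fold: Igf2, Igfbp4 and Igfbp5.

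Between the array labelled βERKO and WT with DMBA, 5 of the 9 genes differed by over 2-fold. Igfbp3, Igfbp4 and Igfbp6 were over 2-fold apart in both knockout comparisons, with opposite signs, and both comparisons share the WT array. The share of all genes with such opposite calls was not counted, so this is not read as particular to these genes. Over 2-fold higher were 2 of 9 (22.2%, against 6.88% of all genes tested), Igfbp2 at 2.04 and Igfbp3 at 1.55. Over 2-fold lower were 3 of 9 (33.3%, against 7.52%), Igf1 at -1.82, Igfbp4 at -1.84 and Igfbp6, about 3.51-fold. Igf2, Igf1r, Igfbp5 and Igfbp7 were within the SD of 0.37. The median over the 9 was -0.08 against 0.14 for all genes. With the normexp setting 3 genes, Igf1, Igfbp2 and Igfbp4, were over 2-fold. Of 9 muscle markers with a probe, 6 were over 2-fold higher on the array labelled βERKO, beside 6.88% of all genes. Their summed level was 51.8 there and 10.6 on WT with DMBA, and their part in these ratios was not tested.

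All 9 genes differed by over 2-fold between αERKO and the array labelled βERKO, each of which was set against the same WT array above. Higher on αERKO were 5 (55.6%, against 12.2% of all genes): Igfbp4 by 18.9-fold, Igfbp6 about 7.56-fold, Igf1 by 2.38 on the log2 scale, Igf2 by 2.00 and Igfbp7 by 1.32. Lower were 4 (44.4%, against 20.0%): Igfbp2 at -2.75, Igfbp3 at -2.59, Igf1r about 2.79-fold and Igfbp5 at -1.22. The median was 1.32 against -0.29. The scaling matters here for all genes: with cyclic loess 1813 were higher and 1768 lower, in place of 1511 and 2490, and Igfbp5 then fell under 2-fold at -0.81 while the other 8 kept their call.

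**Figure D2:**
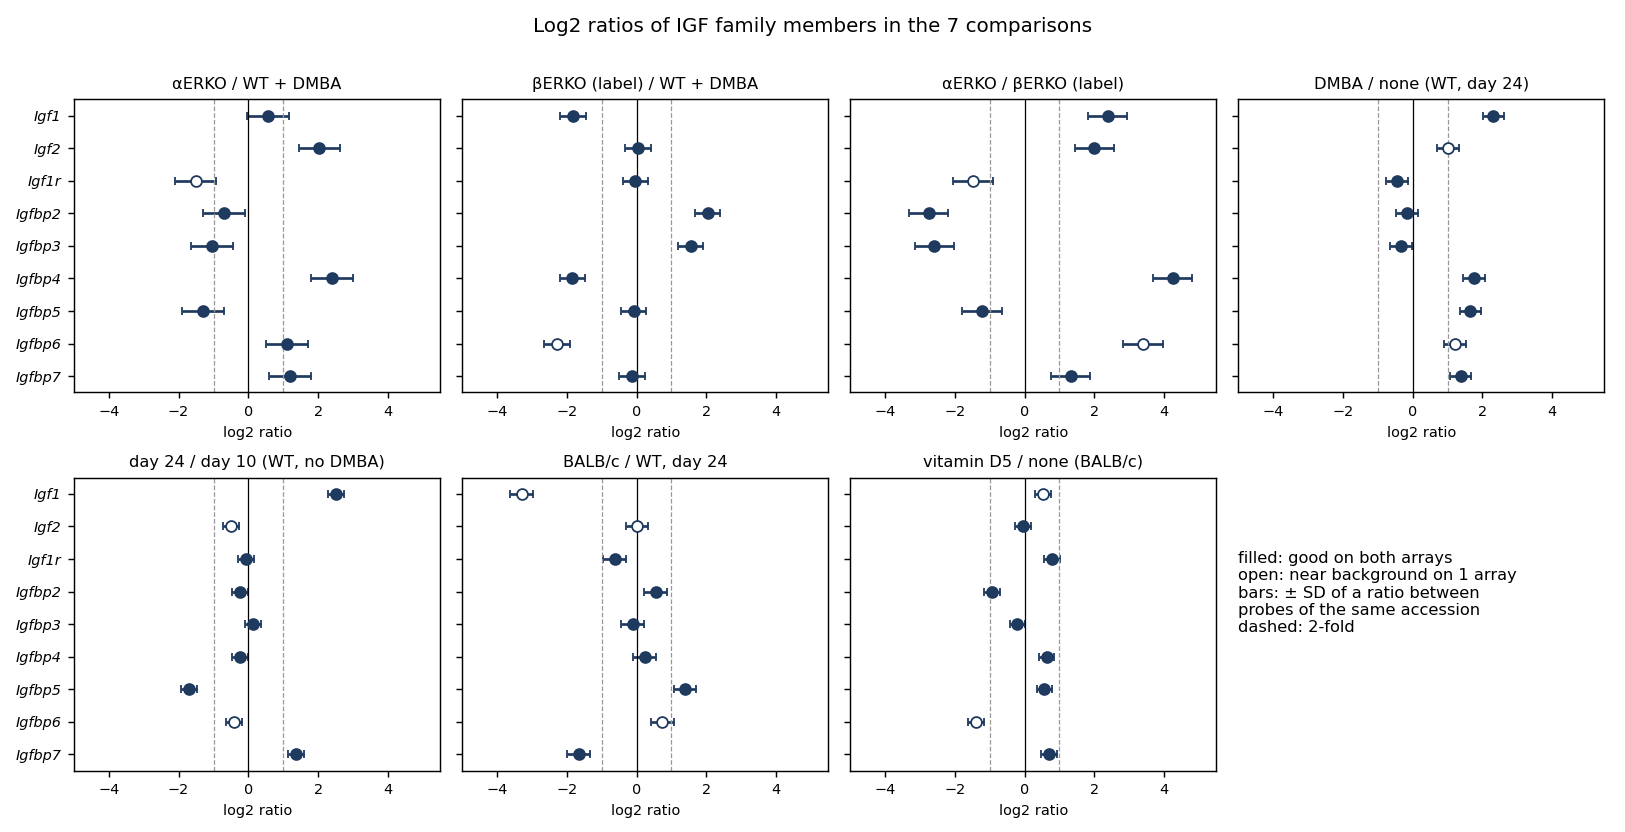
Log2 ratios of the 9 genes in the 7 comparisons, with bars of 1 SD between probes of the same accession, dashed lines at 2-fold and open points where 1 array was near background. Open points are drawn at the measured ratio. In αERKO against the array labelled βERKO all 9 lie outside 2-fold, from Igfbp4 at 4.24 to Igfbp2 at -2.75.

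DMBA was examined in WT glands at day 24, by WT with DMBA against WT without. Treatment of the mice before culture may differ too, since it is not settled for the array without DMBA. Over 2-fold higher with DMBA were 6 of 9 genes (66.7%, against 11.6% of 12150 genes), and none was over 2-fold lower (7.79% of all genes). Igf1 was higher by 2.31 on the log2 scale, Igfbp4 by 1.75, Igfbp5 by 1.65 and Igfbp7 by 1.37. Igf2 was about 2.01-fold and Igfbp6 about 2.31-fold higher, and both were near background without DMBA. Igf1r at -0.45, Igfbp2 at -0.16 and Igfbp3 at -0.33 were within 2-fold. The median was 1.21 against -0.15. At a 3-fold threshold 3 genes were called, Igf1, Igfbp4 and Igfbp5. Over all genes 1411 were higher and 947 lower, and 1630 and 679 with cyclic loess.

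Regression was examined by WT day 24 against WT day 10, which differ in the 14 days without prolactin, aldosterone and hydrocortisone as well as in age of culture. Igf1 at 2.52 and Igfbp7 at 1.38 were over 2-fold higher at day 24 (22.2% of the 9, against 5.47% of 11887 genes). Igfbp5 was lower at -1.71, and its second probe gave -1.51 (11.1%, against 4.34%). Igf1r, Igfbp2, Igfbp3 and Igfbp4 were within 2-fold, and Igf2 and Igfbp6 were near background at day 24. Igfbp5 thus was lower, not higher, on the WT day 24 array without DMBA than on the WT day 10 array. The same day 24 array serves in the DMBA and BALB/c comparisons, so their Igfbp5 ratios rest on its low value of 6.63. The other day 24 arrays with wild-type receptors were at 8.28 (WT with DMBA), 8.03 (BALB/c) and 8.60 (BALB/c with vitamin D5). WT day 10 was at 8.35.

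BALB/c against WT at day 24 compared strains, although treatment may differ too. Over 2-fold higher was Igfbp5 at 1.39, and its second probe gave 0.87 (11.1% of the 9, against 6.22% of 12113 genes). Over 2-fold lower were Igf1, about 9.76-fold, and Igfbp7 at -1.66 (22.2%, against 12.2%). For all genes the split was 753 higher and 1472 lower, and 954 and 870 when arrays were scaled to their 75th percentile, where the 3 calls stood. Vitamin D5 against BALB/c gave 0 genes over 2-fold higher (4.41% of 12177 genes) and 1 lower, Igfbp6 about 2.61-fold (11.1%, against 4.39%). Igf1r at 0.78, Igfbp7 at 0.70, Igfbp4 at 0.63 and Igfbp5 at 0.57 were above the SD of 0.23 but under 2-fold, and Igfbp2 was at -0.94. Igf1, near background on BALB/c, was about 1.45-fold higher with vitamin D5.

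Other genes of the pathway were taken from a list of 50, of which 33 had a named probe. In αERKO against WT with DMBA, 3 of 31 were over 2-fold higher and 5 lower, near the shares of 10.3% and 15.3% among all genes. The 5 lower include Foxo3, near background on αERKO, with a fold of about 1.09. The growth factor adaptor Grb14 was higher at 1.80 and the kinase Akt2 at 1.39, while Pdpk1, the kinase that activates AKT, was lower at -3.47. Grb14 was also higher on the array labelled βERKO, at 1.96, where Igfals, the subunit that forms the circulating complex with IGFBP3, was lower at -1.77. In the DMBA comparison 4 of 33 were higher, among them the IGFBP protease Adam12 at 1.78 and Htra1 at 1.49, and 2 were lower, beside 11.6% and 7.79% of all genes. Against WT with DMBA, Adam12 was lower on αERKO at -1.30 and on the array labelled βERKO at -1.53. In WT day 24 against day 10, Socs2, which restrains growth hormone signalling, was higher at 1.78. In BALB/c against WT 0 of 33 were higher and 5 lower, beside 6.22% and 12.2% of all genes. With vitamin D5 1 of 32 was higher and 2 lower, beside 4.41% and 4.39%. The other receptors, Insr, Igf2r and Insrr, were within 2-fold in all 7 comparisons.

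Levels of cell type markers moved with several of these genes. The adipocyte list (8 of 9 genes with a probe, 7 or 8 of them good) had a summed level of 3008 times the array median on αERKO, 1784 on WT with DMBA, 1581 on the array labelled βERKO, 1001 on WT day 24, 303 on WT day 10, 264 on BALB/c and 177 on BALB/c with vitamin D5. Igf1 ran in the same order apart from the 2 BALB/c arrays. The fibroblast and matrix list (8 of 8 with a probe) was at 544 on αERKO and 217 on WT with DMBA and between 14.7 and 86.4 on the others, with Col1a1 near background on WT day 10 and day 24. The endothelial list was highest on WT with DMBA (69.4) and αERKO (52.2) and between 4.61 and 23.1 elsewhere. The luminal list was lowest on αERKO (441) and highest on WT day 24 (1135). The part these cells have in the values of Igf1, Igf2, Igfbp4 and Igfbp7 was not tested, and in bulk tissue fewer cells of a type and less RNA per cell cannot be told apart. Igfbp5 was low on αERKO, where adipocyte and fibroblast markers were highest. The basal and myoepithelial list (6 of 7 genes with a probe, 5 or 6 of them good) moved with Igfbp5 in several comparisons. Its summed level was 107 on αERKO, 273 on WT with DMBA, 282 on WT day 24, 333 on the array labelled βERKO, 595 on BALB/c, 730 on WT day 10 and 835 on BALB/c with vitamin D5. Of its 6 genes, 5 were over 2-fold lower on αERKO than on WT with DMBA, beside 15.3% of all genes. At WT day 24 against day 10, 4 were lower and 1, Myh11, was higher, beside 4.34% and 5.47%. With DMBA, where Igfbp5 was higher, 2 of the basal genes were higher and 2 lower, beside 11.6% and 7.79%. Their part in the Igfbp5 values was not tested.

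**Figure D3:**
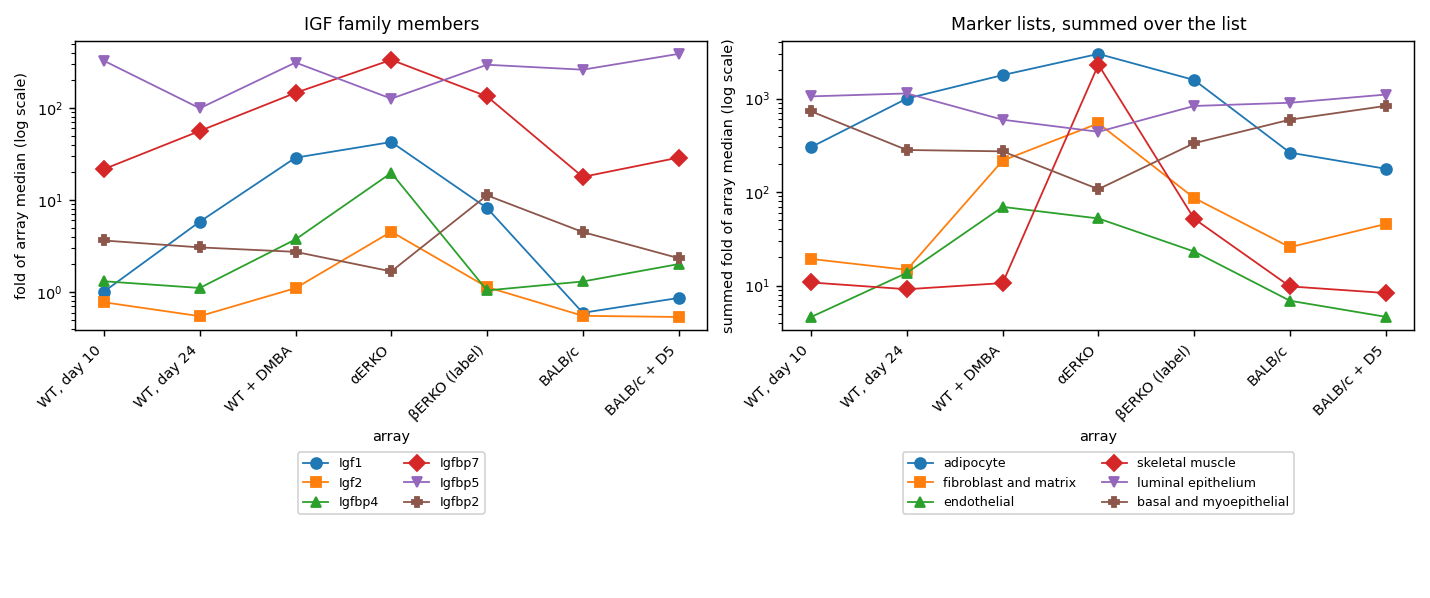
Levels of 6 IGF genes (left) and summed levels of 6 marker lists (right) on the 7 arrays, both as fold of the array median on log axes, with lines that only join values of one gene or list. Adipocyte markers ran from 3008 on αERKO to 177 on BALB/c with vitamin D5, and Igf1 from 42.7 on αERKO to 0.596, near background, on BALB/c.

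The genes most like Igfbp2, Igfbp3, Igfbp4 and Igfbp7 in their pattern were found by the root mean square distance of centred log2 values over 7 arrays, among 9337 genes good on all of them. Nearest to Igfbp2 were the transporter gene Slc7a13 (0.23), Igfbp3 (0.28) and Mier3 (0.28). Nearest to Igfbp3 were Olfr643 (0.17), Mier3 (0.17) and Slc7a13 (0.19). Nearest to Igfbp4 were Septin4 (0.43), Klf2 (0.44) and Lsp1 (0.44), and to Igfbp7 Plaat3 (0.22), a phospholipase of fat tissue, Rtl8c (0.25) and Gstz1 (0.27). Among the members good on all arrays, Igfbp2 and Igfbp3 were the closest pair at 0.28 and Igfbp2 and Igfbp4 the farthest at 2.05.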

How the data were processed

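Per the labels, total RNA was hybridized as 1-colour Cy5 targets to CodeLink arrays, 1 array per group, and the authors deposited for each spot an intensity (spot mean minus local background median) and a quality call. No build is named in the deposited files. The authors' series table was not used here. For the IGF genes, intensities were divided by the median of the 34967 gene probes of the array and log2 was taken; 246 to 344 probes at or below 0 per array were raised to the lowest value above 0. Accessions were named through RefSeq (14763 of 15553 matched), and the brightest probe stood for a gene. Counts were made at 2-fold. Comparisons among the study's 3 arrays counted genes good on at least 1 of those 3. The other comparisons counted genes good on at least 1 array compared. Members and gene lists were chosen with earlier results of these data known. The 9 alternatives were quantile, 75th percentile and cyclic loess scaling, the deposited normalized intensity, normexp correction (limma 3.58.1, offset 50), 2 other filters, a 3-fold threshold and means of probes. The counting code was run on simulated arrays with shifts well beyond 2-fold and little noise, which cannot test calls near the threshold. Named likeness genes were the 3 nearest to members good on all arrays with a range over 2. Pathway genes named were taken from the 3 each way with the largest change among those good on both arrays, and not all of these are given. Slide or scan could not be fitted as a block.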

Additional observations from a re-analysis of the deposited data

How the results depend on the processing

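Of 491 log2 ratios of the IGF genes under the alternatives, 457 stayed within the SD and 0 called ratios turned sign. Much of this was fixed or nearly fixed in advance. Requiring good spots on both arrays leaves a ratio unchanged (50 of 50), and means of probes change only Igfbp5 (63 of 63 within the SD). Scaling to the 75th percentile shifts all genes of an array alike (63 of 63). Raising spots to the array's lowest good value alters only those below it (62 of 63). The deposited normalized intensity (63 of 63) gave nearly the main all-gene median, -0.17 in both for αERKO against WT with DMBA. With normexp 37 of 63 stayed within the SD. The number of the 9 genes over 2-fold in αERKO against WT with DMBA went from 7 to 3 with normexp background correction and to 2 at a 3-fold threshold. In the array labelled βERKO against WT with DMBA it went from 5 to 3 with normexp. For DMBA it went from 6 to 3 at 3-fold. For vitamin D5 it went from 1 to 2 with quantile, 75th percentile and cyclic loess scaling, where Igfbp2 joined, and to 0 with normexp, with spots good on both arrays and at 3-fold. Of 34 calls, 24 stayed with normexp, which shrinks ratios of dim probes. The median log2 ratio of all genes moved from -0.29 to -0.03 for αERKO against the array labelled βERKO and from -0.15 to 0.01 for DMBA with cyclic loess, and from -0.31 to -0.10 for BALB/c against WT at the 75th percentile. Dim signal limits Igf1r, Igf2, Igfbp3 and Igfbp6 most, since local background exceeded the median signal. No replicate array exists for any group, so no array could be left out.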
